A study of Mus musculus with 18 samples.

Results

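Genes named Zfp followed by a number are the mouse zinc finger protein genes, one of the largest groups of DNA-binding proteins of the genome. Every gene of the deposited table whose name is Zfp, a number and at most 1 further letter, and whose mean over all 18 libraries was at least 1 FPKM, was taken: 220 of the 400 genes so named, in a table of 54532 genes. By its name FPKM counts the fragments of a gene per kilobase of its length and per megafragment of the library. Levels of different genes can thus be compared per length. The deposited values had been brought to a common scale between libraries, so their denominators were not the fragment totals of the libraries. The genes were thus chosen by name and by their mean level, which is described here and not tested. Just inside the limit lay Zfp74 at 1.02, Zfp420 at 1.06 and Zfp54 at 1.07 FPKM, and just outside it Zfp820 at 0.977, Zfp606 at 0.955 and Zfp119a at 0.946 FPKM. The 180 genes below the limit had a median of 0.0964 FPKM, and 36 of them were listed at 0 in every library. Of the 220, 190 had a mean of at least 1 FPKM in each of the 6 groups of libraries, and 4 reached the limit only through the level of a single group. No other filter was applied, so all 220 were tested, among 11084 genes of the table that reached the same mean.

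The libraries came from KPCA.B cells, 1 mouse line that the labels describe as high-grade serous ovarian cancer, the common aggressive form of that disease. The cells carried hairpin shNdufa5_1 or hairpin shNdufa5_2, labelled knockdown 1 and knockdown 2 of Ndufa5, which encodes an accessory subunit of respiratory complex I, or they carried shControl, labelled Ndufa5 wild type. Each was grown in SCM, the medium of cells made senescent with cisplatin, a platinum drug that crosslinks DNA, or in PCM, the medium of proliferating cells given DMF, the control treatment. In both cases 1 part of conditioned medium was combined with 1 part of fresh DMEM, a high-glucose culture medium, which held 4% heat-inactivated bovine serum, 2 ng/mL of the growth factor EGF and the supplement ITS-G. The design asked how senescent cells act on transcription in their neighbours and what Ndufa5 has to do with it. There were 3 libraries for each hairpin and medium, and the labels do not say whether they were cultured separately, so that a p-value here covers the spread between these libraries, part of which may be technical.

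Most proteins of this family bind DNA through C2H2 fingers, short loops in which a pair of cysteines and a pair of histidines hold a zinc ion, strung together by a conserved linker. Many also carry a KRAB domain near the start of the protein, which binds the corepressor Trim28 (also called KAP1). Trim28 in turn brings the histone H3 lysine 9 methyltransferase Setdb1, HP1 proteins and histone deacetylases, and KRAB zinc finger proteins are best known for silencing retroelements and for keeping the marks of imprinted genes. The genes multiply by tandem duplication, so that many stand in clusters of close relatives. Others of the family are activators, RNA-binding proteins or parts of the ribosome and spliceosome pathways, and a few share only the name.

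To show the unit that gives the family its name, 1 finger each of 4 genes described below is printed from GRCm38, the mouse genome build of the files. It is the first finger in the longest annotated coding sequence that has the most usual spacing and is followed by the linker, and it is 78 bases, or 26 codons, long. Capitals mark the codons of the 2 cysteines and the 2 histidines, and the lower-case end is the linker. All 4 lie on the plus strand, in the coding part of an exon.
Zfp617 (chr8:71932416-71932493): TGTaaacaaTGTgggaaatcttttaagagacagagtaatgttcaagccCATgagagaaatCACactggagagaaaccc
Zfp719 (chr7:43590016-43590093): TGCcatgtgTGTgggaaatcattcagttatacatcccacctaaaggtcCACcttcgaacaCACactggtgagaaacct
Zfp52 (chr17:21560453-21560530): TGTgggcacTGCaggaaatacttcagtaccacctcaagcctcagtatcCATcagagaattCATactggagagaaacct
Zfp53 (chr17:21508472-21508549): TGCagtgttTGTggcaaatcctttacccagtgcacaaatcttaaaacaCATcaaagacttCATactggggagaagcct
Between any pair of these, 55.1 to 61.5% of the bases were identical. The codons in capitals and the linker are the fixed parts of such a finger, while the bases between the second cysteine and the first histidine include those that encode the residues that read DNA.

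Translated from the longest GENCODE coding sequence, 219 of the 220 genes had a protein, and Zfp469 had no coding transcript in that annotation. The proteins held a median of 10 C2H2 matches (range 0 to 36), and 178 held 5 or more. A match needed 2 to 4 residues between the cysteines, 12 to the first histidine and 3 to 5 between the histidines. A pattern like the core of the KRAB domain was found in 98 of them, out of 115 such proteins among all genes tested. The pattern misses diverged domains such as that of Zfp568, so the genes without it are not all free of KRAB. No C2H2 match was found in 6: Zfp36, which has fingers of another type, Zfp330, Zfp365, Zfp503, Zfp703 and Zfp839.

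The Zfp genes were longer, poorer in G and C and lower in level than the rest of the tested genes. Their exons covered a median of 4885 bp, against 4172 bp in the other genes, and were 46.0% GC, against 49.5%. The median level was 3.83 FPKM (range 1.02 to 48.9) against 9.0 FPKM. The 98 genes with the KRAB-like pattern were the most AT-rich, at a median of 42.6% GC and 4210 bp, while the other 122 had 50% GC and 5642 bp. Chromosome 7 held 54 of the genes, chromosome 17 held 34 and chromosome 8 held 16, and 111 had another within 200 kb. The 6 with the highest mean were Zfp598 (48.9 FPKM), Zfp740 (33.5 FPKM), Zfp703 (31.8 FPKM), Zfp706 (28.6 FPKM), Zfp106 (26.2 FPKM) and Zfp609 (17.6 FPKM), and none of these 6 had the KRAB-like pattern.

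Depth recovered from the smallest steps of the FPKM values was 13.8 to 38.9 M fragments per library (M, mega). The thinnest value of any of the 220 genes rested on 17 fragments, and the median of their lowest values was 199.5 fragments. Ndufa5 itself stood at 6.23 to 6.85 FPKM in the shNdufa5_1 libraries of both media. It stood at 14.6 to 20.2 FPKM in SCM and 16.8 to 18.7 FPKM in PCM in the libraries labelled shNdufa5_2. The shControl libraries had 20.9 to 26.2 FPKM in SCM and 15.2 to 22.1 FPKM in PCM. With shNdufa5_1, Ndufa5 fell by 1.68 in SCM and by 1.39 in PCM on the log2 scale (limma, adjusted p = 9.8e-09 and 1.47e-07). With shNdufa5_2 it fell by 0.43 in SCM (adjusted p = 0.0125), while in PCM the difference of -0.08 did not pass (adjusted p = 0.647), so the PCM libraries of that label do not show the knockdown in their RNA. Those 2 results of shNdufa5_2 hang on the scaling, since with libraries divided by FPKM totals Ndufa5 fell by 0.42 in PCM (adjusted p = 0.00861) and the difference of -0.15 in SCM did not pass (adjusted p = 0.336). Keratins were high in every library (Krt18 462 to 966 FPKM) and Pax8, a Müllerian transcription factor, stood at 7.49 to 15.3 FPKM. Wt1 and Muc16 were listed at 0, Epcam did not exceed 0.399 FPKM and Cdh1 stood at 0.175 to 1.37 FPKM. Of 10 markers of immune, endothelial and fibroblast cells, Cd3e and Thy1 were listed at 0. Ptprc, Pecam1 and Fap did not exceed 0.0231 FPKM, Cdh5 did not exceed 0.14 FPKM and Pdgfrb did not exceed 0.621 FPKM. Cd68, Plvap and Col1a1 had a mean of at least 1 FPKM.

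In shControl cells the Zfp genes were lower as a group in medium from senescent cells. In SCM against PCM, 128 of the 220 fell and 25 rose, and 67 did not pass the test. Among all 11084 genes, 61.9% were called in this comparison, 31.7% as higher and 30.2% as lower, whereas 58.2% of the Zfp genes were called lower and 11.4% higher. The median difference of the Zfp genes was -0.28 on the log2(FPKM + 1) scale, against 0.00 over all genes tested, and 77.7% of them lay below 0. Their share of all fragments was 0.504 to 0.519% in the 3 SCM libraries and 0.725 to 0.738% in the 3 PCM libraries. Genes were called with limma at an adjusted p under 0.05, and all differences below are on the same scale, which understates the change of low genes. Values per library are relative, and in bulk RNA fewer cells of a type and less RNA per cell cannot be told apart. The 10 markers of other cell types summed to 15.4 to 17.5 FPKM in SCM and 7.33 to 8.13 FPKM in PCM, and the epithelial and ovarian carcinoma markers to 1272 to 1373 FPKM in SCM and 784.8 to 849 FPKM in PCM. Abundant RNAs that can follow library quality moved with the medium too. Gm23935 stood at 71195 to 105411 FPKM in SCM and 14889 to 26579 FPKM in PCM, Lars2 at 105.8 to 162.6 FPKM in SCM and 24.6 to 41.8 FPKM in PCM, and the nuclear RNA Malat1 at 163 to 198.1 FPKM in SCM and 78.9 to 92.2 FPKM in PCM. The part of these markers and RNAs in the result was not tested.

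**Figure D1:**
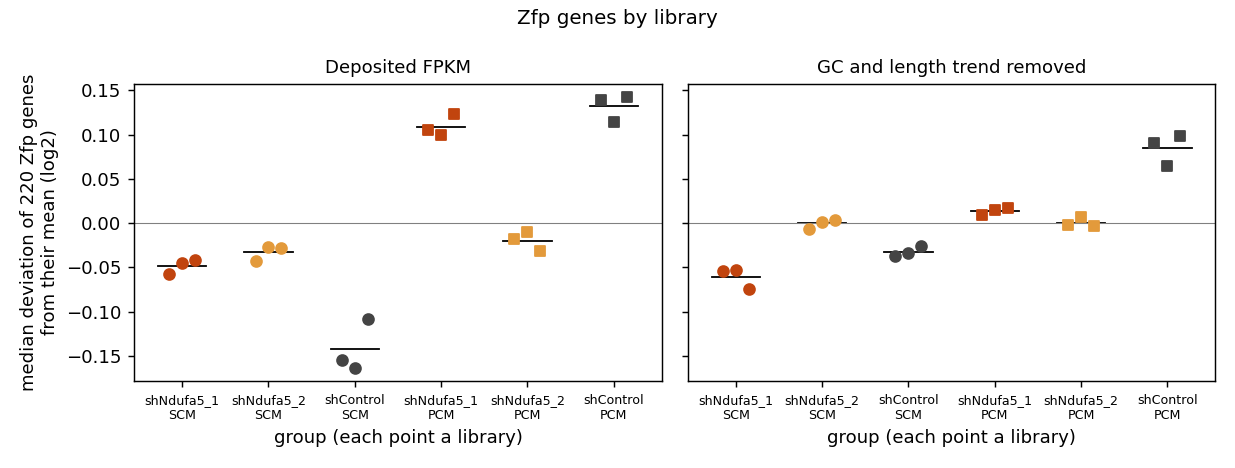
Each point is 1 of the 18 libraries, placed by the median deviation of the 220 Zfp genes from their own mean over all libraries (log2 scale), from deposited FPKM (left) and with the trend with GC content and exon length removed (right); short lines are group means. On the left the shControl SCM libraries lie lowest (-0.163 to -0.108) and the shControl PCM libraries have the highest mean (0.114 to 0.142), and on the right the shNdufa5_1 SCM libraries lie lowest (-0.0748 to -0.0534).

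On the log2(FPKM + 1) scale the 2 genes that fell most were both KRAB-like genes with long finger arrays. Zfp617 (chr8:71908635-71934629, plus strand, 14 C2H2 matches) stood at 3.64, 3.32 and 3.97 FPKM in SCM, against 9.79, 9.24 and 9.79 FPKM in PCM. All 3 SCM values were far below all 3 PCM values, and the difference was -1.19 ± 0.09 (SE; adjusted p = 1.19e-08). Zfp719 (chr7:43579610-43593235, plus strand, 13 C2H2 matches) stood at 1.55, 1.83 and 2.27 FPKM in SCM, against 5.50, 4.96 and 5.64 FPKM in PCM. Its groups were as far apart, with a difference of -1.15 ± 0.11 (adjusted p = 1.88e-07). No other Zfp gene fell by 1 or more on this scale, which understates low genes. As a ratio of mean FPKM the falls of Zfp850 and Zfp65 were larger than that of Zfp617. Zfp850 had a mean of 0.602 FPKM in SCM, against 1.83 FPKM in PCM, and Zfp65 had 0.933 against 2.57 FPKM.

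The next 6 in size were Zfp65 (-0.88), Zfp62 (-0.87), Zfp850 (-0.84), Zfp568 (-0.83), Zfp938 (-0.83) and Zfp763 (-0.80). Zfp62, with 25 C2H2 matches, stood at 3.07, 3.15 and 2.43 FPKM in SCM, against 5.92, 5.49 and 6.94 FPKM in PCM. Zfp568, which in mice represses a placental transcript of the growth factor gene Igf2, stood at 2.32, 2.10 and 2.29 FPKM in SCM, against 4.60, 5.02 and 4.68 FPKM in PCM (-0.83 ± 0.06, adjusted p = 9.45e-09). In each of these 6 the 3 SCM libraries lay below the 3 PCM libraries. Over all genes tested 66.1% had media that did not overlap in this comparison. A lack of overlap was a condition for being named among the genes that changed most. This holds here and in the medium and hairpin comparisons below, so for those genes it is no added evidence.

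The 25 genes that rose did so by less. Zfp341 (chr2:154613297-154646821, plus strand), whose human counterpart activates transcription of STAT3, led them with 3.43, 3.47 and 3.30 FPKM in SCM, against 2.11, 1.96 and 1.12 FPKM in PCM (0.71 ± 0.12, adjusted p = 0.000118). Zfp688 (0.54), Zfp335 (0.53), Zfp414 (0.53), Zfp692 (0.53), Zfp444 (0.52), Zfp574 (0.51) and Zfp53 (0.47) followed, and of these 8, Zfp688 and Zfp53 had the KRAB-like pattern. Zfp335, mutated in a human form of microcephaly, stood at 14.1, 14.5 and 13.7 FPKM in SCM, against 9.48, 9.80 and 9.10 FPKM in PCM. Zfp53 stood at 11.3, 11.4 and 10.5 FPKM in SCM, against 7.32, 8.08 and 7.72 FPKM in PCM (0.47 ± 0.06, adjusted p = 6.88e-06). The direction of the rising genes depends on the scaling: with libraries divided by their FPKM totals, which moves the median of all genes by -0.50, 1 of the 220 rose and 194 fell, and Zfp335, Zfp414, Zfp692, Zfp444, Zfp574 and Zfp53 turned to slightly negative values. Divided by fragment totals, with a shift of all genes of -0.21, 9 rose and 161 fell. The share of all genes called under either total is not given here. Counts under these totals, here and below, thus cannot be read as particular to the Zfp genes.

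**Figure D2:**
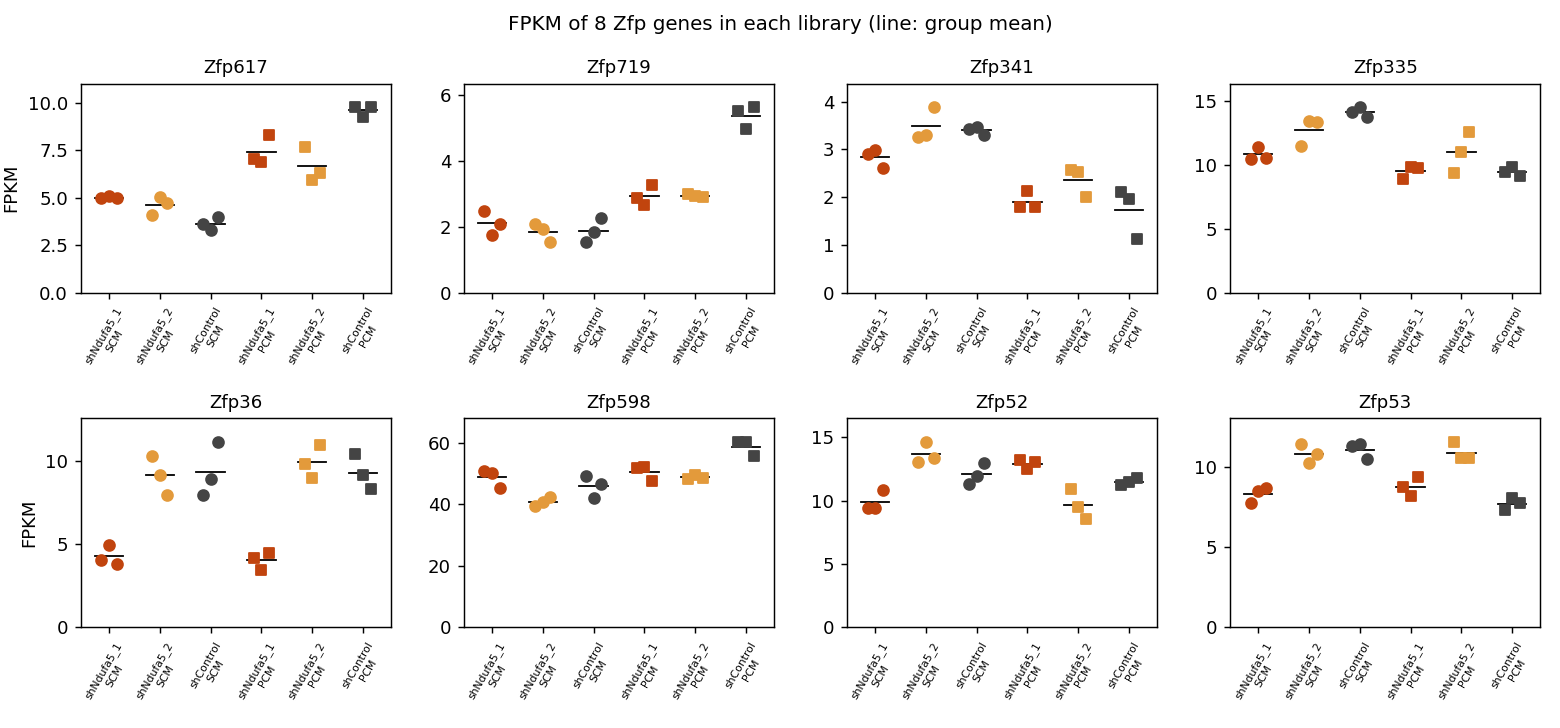
FPKM of 8 Zfp genes in each of the 18 libraries, by hairpin and medium, with short lines for group means. Zfp617 and Zfp719 are lowest in SCM and highest in shControl PCM, Zfp341 and Zfp335 are higher in shControl SCM than in shControl PCM, and Zfp36 is low in all 6 shNdufa5_1 libraries.

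Zfp genes of the RNA and ribosome pathways were mostly lower in SCM as well: of 11 tested, 9 fell, Zfp385a rose and Zfp36 did not pass. Zfp598, the ubiquitin ligase that recognises collided ribosomes and the Zfp gene with the highest level, stood at 49.2, 42.1 and 46.4 FPKM in SCM, against 60.1, 60.3 and 55.6 FPKM in PCM (-0.35 ± 0.06, adjusted p = 8.1e-05). The ranges did not overlap. Zfp638, which silences unintegrated retroviral DNA together with the HUSH complex, fell by 0.63 (adjusted p = 2.54e-05), Zfp326, a splicing and elongation factor, by 0.53, and Zfp830, a protein of the spliceosome pathway, by 0.48. Zfp346, which binds double-stranded RNA, fell by 0.36 (adjusted p = 0.0103), though not past the threshold without the third shControl SCM library (adjusted p = 0.0529). Zfp106, an RNA-binding protein, fell by 0.28 with 22.1, 21.1 and 22 FPKM in SCM, against 27.8, 25.5 and 26.5 FPKM in PCM.

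Smaller falls were those of Zfp207, the kinetochore protein BuGZ (-0.22), Zfp622, which acts in maturation of the large ribosomal subunit (-0.18), and Zfp706 (-0.16). The Zfp706 call was lost without the third library of either shControl group (adjusted p = 0.0549 and 0.0805). Zfp385a, a partner of p53 that also binds RNA, rose by 0.40 (adjusted p = 0.000733), with 11.8, 10.1 and 9.72 FPKM in SCM, against 8.0, 8.36 and 6.82 FPKM in PCM. Zfp36, or tristetraprolin, which drives decay of AU-rich cytokine mRNAs, stood at 7.93, 8.90 and 11.1 FPKM in SCM, against 10.4, 9.11 and 8.32 FPKM in PCM. These ranges overlapped and the difference was -0.00 (adjusted p = 0.998). Of the genes with the highest levels, Zfp740 (0.14, adjusted p = 0.0239) and Zfp609 (0.09, adjusted p = 0.0492) rose slightly, calls lost in 2 and in 4 of the 6 fits that left out 1 shControl library (adjusted p = 0.0985 to 0.103 and 0.0663 to 0.218) and turned negative when divided by either total.

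Of the 5 tested KRAB zinc finger genes known from imprinting and retroelement silencing, 4 fell and none rose. Zfp57, which keeps the methylation of imprinted regions, stood at 13.9, 14.8 and 15.1 FPKM in SCM, against 16.8, 16.2 and 17 FPKM in PCM (-0.18, adjusted p = 0.00455). Zfp445, which shares that function, fell by 0.44 (adjusted p = 0.000513), with 6.30, 6.04 and 7.82 FPKM in SCM, against 9.72, 8.80 and 9.71 FPKM in PCM. Zfp932, a repressor of endogenous retroviruses, fell by 0.32 (adjusted p = 0.0133; 0.0607 without the second shControl SCM library), and Zfp568 is given above. Zfp809, which silences retroviral DNA in mouse stem cells, had a difference of -0.25 that did not pass (adjusted p = 0.0800). Zfp708 and Zfp819 were under the limit and were not tested. With the trend with GC content and length removed, as described below, Zfp57 (-0.07) and Zfp445 (-0.16) lost their calls. Zfp932 then turned to a positive value that did not pass (0.09), while Zfp568 kept its call.

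Among 16 other well studied Zfp transcription factors 9 fell, 2 rose and 5 did not pass. Zfp91, a ubiquitin ligase of the NF-kB pathway, stood at 10.5, 10.2 and 10.2 FPKM in SCM, against 18.8, 16.6 and 16.3 FPKM in PCM (-0.69 ± 0.06, adjusted p = 1.4e-07). Zfp217, whose human counterpart is amplified in ovarian and breast cancers, stood at 8.08, 9.42 and 8.89 FPKM in SCM, against 12.2, 12.6 and 13.2 FPKM in PCM (-0.48, adjusted p = 5.88e-06). Zfp703, a human breast cancer oncogene, stood at 27.4, 27.0 and 27.1 FPKM in SCM, against 33.3, 32.7 and 32.4 FPKM in PCM (-0.26, adjusted p = 0.000549). For these 3 the media did not overlap.

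Zfp281, a stem cell transcription factor, fell by 0.54, Zfp148 by 0.50, Zfp318, needed for IgD in mouse B cells, by 0.40, Zfp131 by 0.38, Zfp410, which activates Chd4, by 0.22 and Zfp462 by 0.20. The call of Zfp410 was lost without the third shControl PCM library (adjusted p = 0.0548). Zfp335 rose, as given above, and Zfp143, which binds and activates many promoters, rose by 0.18 (adjusted p = 0.0361), a call lost in 4 of the 6 fits that left out 1 shControl library (adjusted p = 0.0756 to 0.111). Zfp263 (0.10), Zfp384 (-0.14), Zfp516 (-0.09), Zfp322a (-0.14) and Zfp292 (-0.09) did not pass, and Zfp384 did pass in 2 of those fits (adjusted p = 0.0228 and 0.0362). These 5, Zfp36 and Zfp809 all passed as lower with libraries divided by FPKM totals (-0.71 to -0.44), Zfp263 with the sign turned (-0.44, adjusted p = 0.00481). Zfp42, a pluripotency marker, was listed at 0, and Zfp423, Zfp521 and Zfp593 were also under the limit and not tested. Over 3 against 3 libraries an exact permutation test, two-sided, cannot give a p below 0.1. In SCM against PCM 27 of the 32 tested genes of the 3 role lists reached that value. A gene reaches it when its groups do not overlap, as was so for 66.1% of all genes tested in this comparison. Zfp516 and Zfp809, which did not pass with limma, reached it too.

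The corepressor that KRAB proteins recruit did not move as 1 block. Of 18 tested genes of the Trim28 machinery, 11 fell and 5 rose in SCM, with a median of -0.26. Trim28 itself rose by 0.64 ± 0.04 (adjusted p = 2.24e-09) within a range of 67.3 to 117.6 FPKM over all libraries, and the DNA methylation factors Uhrf1 and Dnmt1 rose by 0.37 and 0.31. Setdb1 fell by 0.63 ± 0.07 (adjusted p = 7.56e-07), the remodeller Smarcad1 by 0.61 and the deacetylase Hdac2 by 0.43. With the trend with GC and length removed, 5 of the 18 rose and 4 fell, and the median was 0.02. Divided by FPKM totals, 16 of the 18 fell and none rose, Trim28 stood at 0.0392 without passing (adjusted p = 0.576), and Uhrf1 (-0.23) and Dnmt1 (-0.28) fell. Atf7ip2 and Tasor were not tested.

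The fall in SCM followed base composition, among the Zfp genes and among all other genes alike. Across the 220 genes the rank correlation (Spearman) of GC content with the SCM difference in shControl was 0.596, and across 10854 other genes it was 0.539. These are correlations over genes of the same 6 libraries, given as a description. Genes were split into 5 bins of equal size by the GC content of all tested genes, and 88 of the 220 lay in the lowest bin, at or under 43.8% GC. There 85.2% of the Zfp genes fell, with a median of -0.48, against 62.4% and -0.30 for the other genes of that bin. In the second bin 61.1% of 36 Zfp genes fell, against 44.1% of the others, and in the third 43.3% of 30, against 25.1%. In the fourth 37.0% of 27 fell, against 11.5%, and in the highest, above 55.1% GC, 20.5% of 39, against 5.75%. The median of the Zfp genes in the highest bin was 0.13, against 0.32 for the others. Within every bin the Zfp median was the lower one.

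Length showed a weaker relation. The rank correlation of exon length with the SCM difference was -0.137 across the Zfp genes and -0.323 across the others. Among bins by length, Zfp genes of 1998 to 3440 bp had a median of -0.18 (n = 50) and those of 3440 to 5006 bp one of -0.35 (n = 57), against 0.12 and 0.02 for other genes of those lengths. The longest bin, above 7328 bp, had a median of -0.29 (n = 42), against -0.16. Only 8 Zfp genes were under 1998 bp, too few for a trend to rest on.

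**Figure D3:**
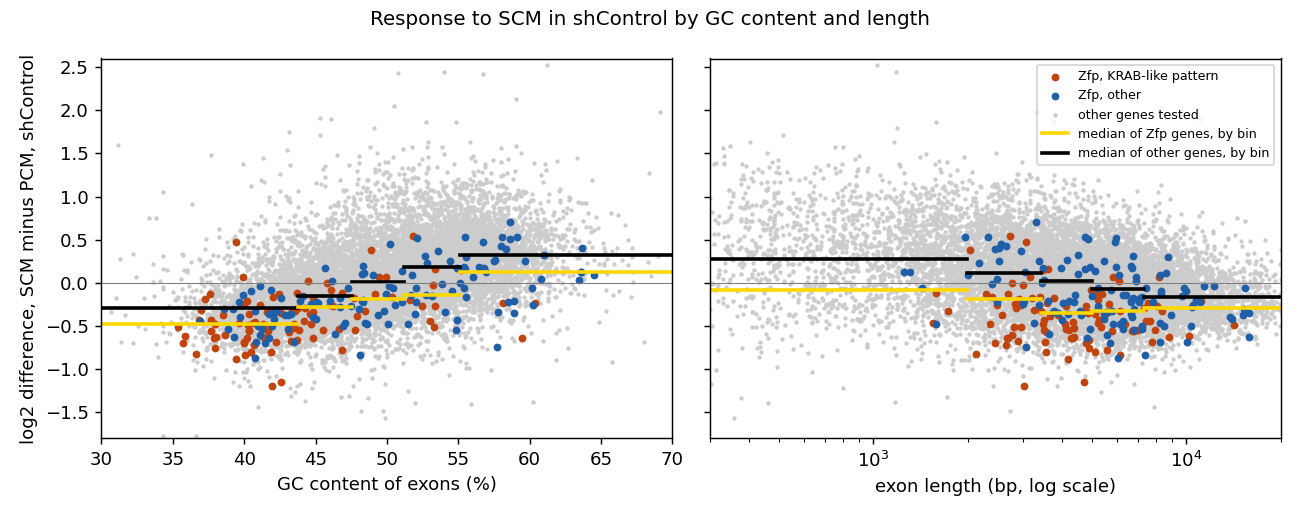
Difference of SCM against PCM in shControl (log2 scale) against exon GC content (left, percent) and exon length (right, base pairs, log axis), 1 point per gene, with the most extreme of the other genes outside the axes. Horizontal lines are medians of the Zfp genes and of the other genes within 5 bins of all tested genes; both sets climb with GC content, and the Zfp line lies below the other in every bin.

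When the trend with GC content and length was removed from each library, the fall of the Zfp genes shrank but did not vanish. Then 76 fell and 18 rose, where 50.1% of all genes were called, 20.6% lower and 29.5% higher, and the median was -0.11, against 0.02 over all genes. Zfp617 stayed at -0.92, Zfp719 at -0.84 and Zfp568 at -0.71, and Zfp53 moved up to 0.81. After this step the shControl PCM libraries stood apart from the other 15, with a median deviation of the Zfp genes of 0.0649 to 0.0986, whereas the shControl SCM libraries had -0.0376 to -0.0263. The GC trend differed between libraries: the rank correlation of GC content with a gene's deviation from its mean was 0.469 to 0.544 in the 3 shControl SCM libraries and -0.359 to -0.273 in the 3 shControl PCM libraries. Whether such a trend arose in the cells or in the libraries cannot be told apart. Genes that lost their call with the trend removed include Zfp326 (-0.11), Zfp385a (0.05), Zfp57 (-0.07), Zfp445 (-0.16), Zfp281 (-0.24), Zfp131 (-0.08), Zfp318 (-0.16) and Zfp692 (0.18), and Zfp207 (0.18), Zfp622 (0.14), Zfp706, Zfp932 and Zfp410 turned to positive values, the first 2 past the threshold (adjusted p = 0.0069 and 0.0307). Of genes that had not passed, Zfp322a (0.25, adjusted p = 0.0386) and Zfp292 (0.29, adjusted p = 0.0188) turned from negative values to called rises, and Zfp384 (-0.18) and Zfp516 (-0.22) were called as lower.

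The KRAB-like genes were lower in SCM than the rest of the family, and they were also the most AT-rich. Of the 98, 72 fell and 3 rose, with a median of -0.43, whereas of 115 C2H2 genes without the pattern 52 fell and 22 rose, with a median of -0.18. Within the lowest bin of GC content 49 of 58 KRAB-like genes fell (median -0.51), against 26 of 30 of the other Zfp genes (median -0.39), and within the second 12 of 19 (median -0.33), against 10 of 17 (median -0.23). In the third bin the medians were -0.16 for 9 KRAB-like genes and -0.21 for 21 others. In the highest bin they were -0.24 for 4 and 0.16 for 35, with 3 of 4 fallen against 5 of 35. With the trend removed, 32 of the 98 fell and 3 rose (median -0.16), and of the 115 others 39 fell and 15 rose (median -0.08). The difference between KRAB-like and other Zfp genes was not tested as such, since genes of a cluster share sequence and are not independent.

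The median also differed by number of fingers and by level. Genes with 10 or more C2H2 matches had a median of -0.33 (70 of 110 fell), those with 5 to 9 one of -0.23 (35 of 68) and those with 0 to 4 one of -0.18 (22 of 41). Without the trend these medians were -0.10, -0.12 and -0.13. By tandem position the median and the share did not point the same way, at -0.32 with 56.8% of 111 fallen for tandem genes, against -0.26 with 59.6% of 109 for genes without a near neighbour of the family. By level, the 88 genes between 1 and 3 FPKM had a median of -0.36, the 82 between 3 and 8 FPKM one of -0.23 and the 50 above that one of -0.20, and without the trend these were -0.10, -0.16 and -0.09.

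The promoters of the Zfp genes were also poorer in CG dinucleotides than those of other active genes. RefSeq promoters (build GRCm38.p6, 250 bases before to 50 after the start) were found for 183 of the 220. For each gene the RefSeq promoter nearest its GENCODE start was taken, at any distance from that start. Their median was 16 CG in 300 bases, with 12 for 88 KRAB-like genes and 19 for the other 95, against 22 for 7939 other tested genes and 7 for all 32851 promoters of the table. The rank correlation of this number with the SCM difference was 0.222 over 183 genes. The promoters of the 2 genes that fell most and of the gene that rose most are printed with every CG in capitals, to show how unequal these starts are.
Zfp617 (chr8:71922575-71922874, plus strand): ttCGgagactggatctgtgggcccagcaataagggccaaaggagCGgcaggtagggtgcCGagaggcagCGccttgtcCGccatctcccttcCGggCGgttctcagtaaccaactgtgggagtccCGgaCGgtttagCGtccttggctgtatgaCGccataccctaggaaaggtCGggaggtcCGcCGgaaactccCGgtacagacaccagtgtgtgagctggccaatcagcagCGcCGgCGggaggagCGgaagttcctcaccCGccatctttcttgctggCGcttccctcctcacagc
Zfp719 (chr7:43579336-43579635, plus strand): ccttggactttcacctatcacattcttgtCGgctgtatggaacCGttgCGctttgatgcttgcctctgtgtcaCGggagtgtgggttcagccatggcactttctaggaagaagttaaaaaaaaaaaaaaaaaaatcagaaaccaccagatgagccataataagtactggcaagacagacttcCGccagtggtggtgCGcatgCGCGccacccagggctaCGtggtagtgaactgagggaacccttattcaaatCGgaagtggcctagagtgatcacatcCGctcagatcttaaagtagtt
Zfp341 (chr2:154613118-154613417, plus strand): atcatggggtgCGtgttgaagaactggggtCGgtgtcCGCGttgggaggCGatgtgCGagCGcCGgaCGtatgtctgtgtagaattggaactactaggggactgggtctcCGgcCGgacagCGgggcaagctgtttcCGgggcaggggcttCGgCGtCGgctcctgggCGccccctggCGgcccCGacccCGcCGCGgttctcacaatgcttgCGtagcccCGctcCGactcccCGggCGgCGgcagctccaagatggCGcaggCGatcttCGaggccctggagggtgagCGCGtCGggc
Zfp617 held 21 CG, a number that 24.8% of all promoters reach, Zfp719 held 11 (41.4%) and Zfp341 held 34 (7.73%). The Zfp617 promoter printed lies inside the GENCODE span of the gene given above and not at its start, so the annotations differ there.

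Position on the chromosome went with the fall too. The 34 genes of chromosome 17 had a median of -0.49, with 26 fallen and 4 risen, whereas the 54 of chromosome 7 had a median of -0.11, with 20 fallen and 8 risen. There were 11 clusters of at least 4 Zfp genes, holding 68 in all. In the chromosome 17 cluster of 11 KRAB-like genes at chr17:32765496-33394641, from Zfp871 to Zfp101, 10 fell and none rose (median -0.55). In that of 6 at chr17:21926960-22456689, from Zfp942 to Zfp946, all 6 fell (median -0.56). A cluster of 4 on chromosome 9 (Zfp560, Zfp26, Zfp426 and Zfp266) fell whole, with a median of -0.52, and so did the 4 genes Zfp60, Zfp626, Zfp59 and Zfp850 on chromosome 7 (median -0.42). These 4 clusters of chromosomes 17, 9 and 7 had a median GC content of 37.2 to 41.7%. All 4 of Zfp874b, Zfp87, Zfp748 and Zfp65 on chromosome 13 fell as well (median -0.31). A cluster of 5 at 60.2% GC on chromosome 7 (Zfp628, Zfp579, Zfp524, Zfp865 and Zfp580), none with the KRAB-like pattern, had a median of 0.03, with 1 risen and none fallen. In the largest cluster, 13 genes at chr7:29768552-30169750, 6 fell and none rose (median -0.32). Of 7 genes at chr7:127233061-127615797, 1 fell and 1 rose (median 0.17). Of 5 on chromosome 6, from Zfp282 to Zfp746, 3 fell and none rose (median -0.24). Of 4 on chromosome 9, from Zfp653 to Zfp810, 2 fell and none rose (median -0.29). With the trend removed the 4 clusters named first had medians of -0.17 to -0.12, and that of chromosome 13 one of -0.0448. The one at 60.2% GC then had a median of -0.26, and the last 4 had medians of -0.34 to -0.03. Chromosomes 17 and 7 then had medians of -0.13 and -0.11.

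Neighbours within a cluster could differ. In the cluster of 5 at chr17:21423227-21588699, Zfp51, Zfp53 and Zfp52 lie in this order on the plus strand, at 38.5 to 39.9% GC. The cluster had a median of -0.25, and of 0.0618 with the trend removed. Zfp51 stood at 1.53, 1.82 and 2.49 FPKM in SCM, against 3.24, 3.18 and 2.02 FPKM in PCM, ranges that overlapped (-0.37, adjusted p = 0.0169). Zfp53 rose, with the values given above. Zfp52 stood at 11.3, 11.9 and 13.0 FPKM in SCM, against 11.2, 11.5 and 11.8 FPKM in PCM (0.06, adjusted p = 0.485). Close relatives can share stretches of sequence, so part of a level could belong to a neighbour, which was not tested. Whether fragments were counted by strand is not given in the sources used here.

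**Figure D4:**
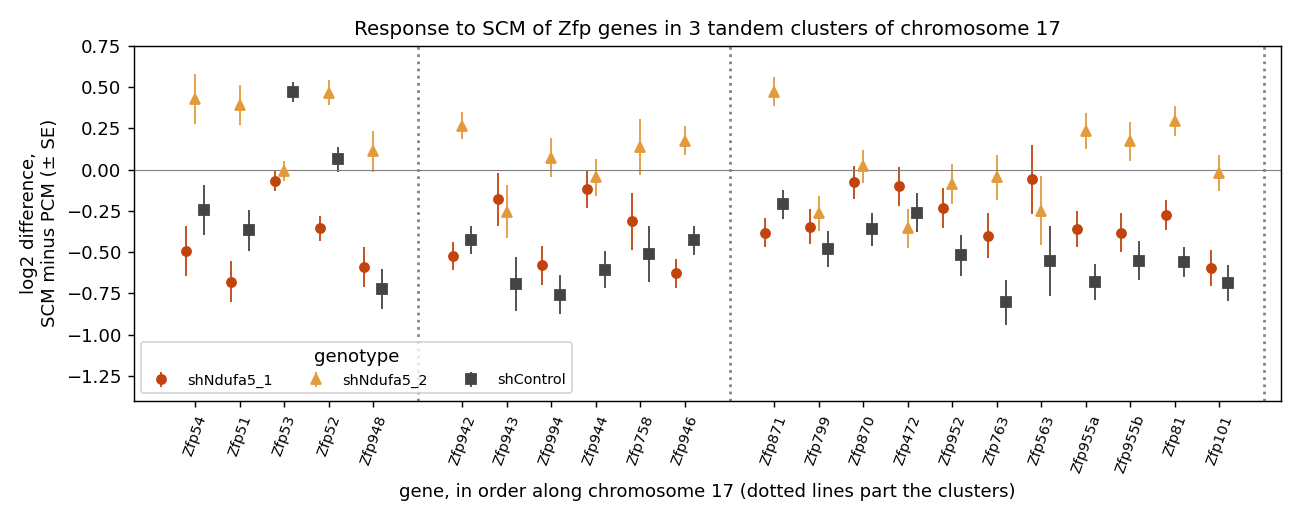
Difference of SCM against PCM on the log2 scale (points, with SE bars) for the 22 Zfp genes of 3 chromosome 17 clusters, in order along the chromosome, for each hairpin. In shControl all 17 genes of the second and the third cluster lie below 0, while Zfp53 in the first lies at 0.47.

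The fall in SCM was smaller with shNdufa5_1 and not seen as a group with shNdufa5_2. With shNdufa5_1, 73 fell and 11 rose (median -0.14), where 42.3% of all genes were called, 19.8% lower and 22.5% higher. Without the third PCM library 55 fell and 7 rose. In the libraries labelled shNdufa5_2, 21 fell and 14 rose (median -0.01), where 22.8% of all genes were called, 11.1% lower and 11.7% higher. Without the first PCM library 12 fell and 9 rose there, without the third 12 and 15, and without the third SCM library 14 fell and 7 rose. With libraries divided by FPKM totals, the split for shNdufa5_2 was 4 fallen and 8 risen, with a shift of all genes of 0.03. By fragment totals it was 29 and 10, with a shift of -0.06. Removal of the trend left 33 fallen and 5 risen with shNdufa5_1 (median -0.08), where 28.5% of all genes were called, and 18 fallen and 15 risen with shNdufa5_2 (median 0.00), where 21.7% were. The Zfp share of all fragments was 0.620 to 0.629% in SCM and 0.718 to 0.730% in PCM with shNdufa5_1, and 0.582 to 0.597% in SCM and 0.608 to 0.621% in PCM with shNdufa5_2. The markers of other cell types summed to 8.57 to 9.93 FPKM in SCM and 5.03 to 5.62 FPKM in PCM with shNdufa5_1, and to 19.1 to 23.1 FPKM in SCM and 15 to 18 FPKM in PCM with shNdufa5_2. Gm23935 stood at 29578 to 59574 FPKM in SCM and 31614 to 99866 FPKM in PCM with shNdufa5_1, and at 26742 to 48813 FPKM in SCM and 59660 to 73606 FPKM in PCM with shNdufa5_2. Their part in these results was not tested.

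The genes that fell with shNdufa5_1 were largely those that fell in shControl: 66 fell in both, 51.6% of the 128 and 90.4% of the 73, and none was called in opposite directions. These comparisons share no library. The share of all genes that fell in both is not given here, nor is the overlap with the trend removed. The overlaps with either hairpin thus cannot be read as particular to the Zfp genes. The sign was the same for 82.3% of the Zfp genes, against 77.1% of all genes, and the differences correlated at r = 0.713 over the 220 genes, against 0.608 over all. With shNdufa5_2, 17 fell in both, 13.3% of the 128 and 81.0% of the 21, 8 were called in opposite directions, and the sign was the same for 54.5%, against 62.8% of all genes (r = 0.182, against 0.360). The relation to GC content was 0.735 over the Zfp genes with shNdufa5_1 (0.545 over the others) and -0.222 with shNdufa5_2 (0.0682 over the others).

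With shNdufa5_1, the KRAB-like genes again held most of the fall, with 41 of 98 fallen and none risen (median -0.26), against 30 fallen and 11 risen of the 115 without the pattern. Zfp959 fell by 0.90 (adjusted p = 7.22e-05), with 0.819, 1.10 and 0.692 FPKM in SCM, against 2.55, 3.08 and 1.92 FPKM in PCM. Zfp938 (-0.68), Zfp51 (-0.68) and Zfp946 (-0.63) followed. Zfp51 stood at 2.45, 2.61 and 2.45 FPKM in SCM, against 4.70, 4.90 and 4.24 FPKM in PCM, with no overlap, as for 52.2% of all genes. Zfp414 (0.47), Zfp341 (0.40), Zfp358 (0.38) and Zfp385a (0.38) rose most, but Zfp341 (0.22), Zfp358 (0.19) and Zfp385a (0.20) did not pass without the GC and length trend (adjusted p = 0.159, 0.124 and 0.0740), nor did Zfp938 (-0.45, adjusted p = 0.0596). The call of Zfp341 was also lost without 1 of 2 libraries, the third in PCM (adjusted p = 0.0503) or the second in SCM (0.0526). Of the RNA and ribosome list 5 fell and 1 rose, of the imprinting list 2 fell and none rose, of the other transcription factors 6 fell and none rose, and of the Trim28 machinery 11 fell and 3 rose.

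With shNdufa5_2, Zfp213 (-0.48), Zfp719 (-0.47), Zfp617 (-0.44) and Zfp472 (-0.36) fell most in SCM. Zfp617 stood at 4.12, 5.03 and 4.70 FPKM in SCM, against 7.67, 5.96 and 6.33 FPKM in PCM, without overlap, as for 37.8% of all genes. Zfp213 lost its call without 2 of the libraries (adjusted p = 0.0584 and 0.0999) and Zfp472 without 4 (0.0504 to 0.187). Zfp984 (0.48), Zfp871 (0.47), Zfp52 (0.47) and Zfp292 (0.45) rose most. Zfp52 stood at 13.1, 14.6 and 13.3 FPKM in SCM, against 10.9, 9.53 and 8.53 FPKM in PCM (adjusted p = 0.000444), whereas with shNdufa5_1 it stood at 9.41, 9.42 and 10.8 FPKM in SCM, against 13.2, 12.5 and 13.0 FPKM in PCM (-0.36, adjusted p = 0.00151). Zfp52 thus had opposite signs with the 2 hairpins, each with no overlap between media. Of the KRAB-like genes 8 rose and 9 fell (median -0.01).

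**Figure D5:**
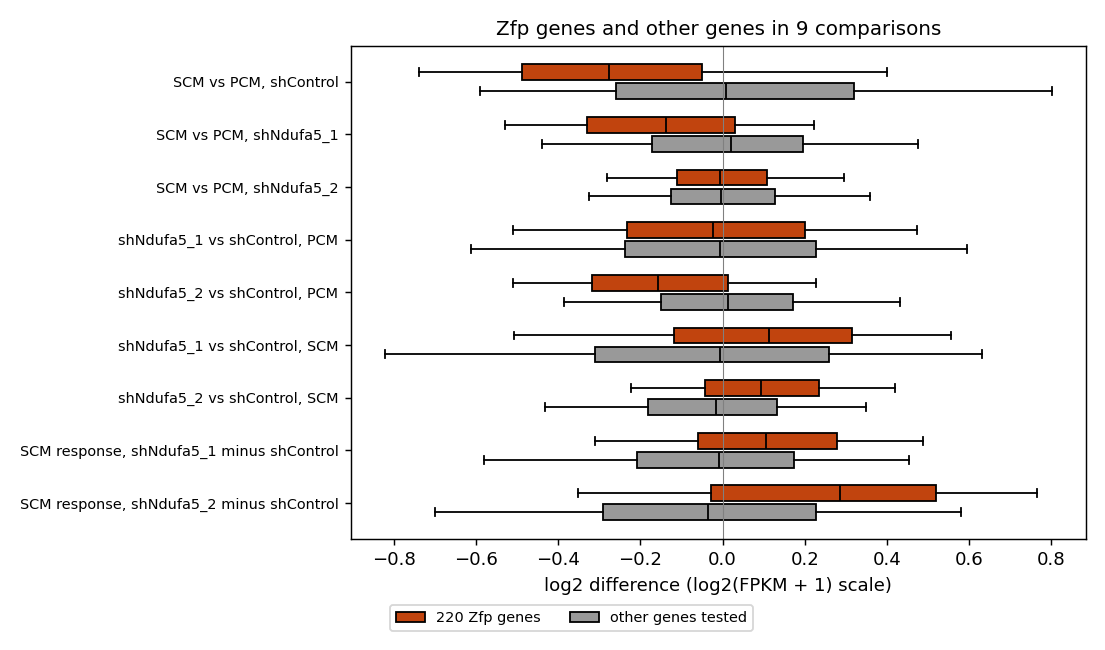
Differences of the 220 Zfp genes and of all other tested genes in 9 comparisons (log2 scale); boxes span the 25th to 75th percentile with the median as a line, and whiskers the 5th to 95th. The Zfp box lies lowest for SCM against PCM in shControl (median -0.28) and highest for the SCM response with shNdufa5_2 minus that in shControl (median 0.29).

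The difference between these responses was tested as an interaction, the SCM response with a hairpin minus that in shControl. With shNdufa5_1 it was more positive for 28 Zfp genes and more negative for 7 (median 0.11), where 26.2% of all genes were called, 10.7% more positive and 15.5% more negative. The 7 became 4 without the third shControl PCM, the first shNdufa5_1 PCM, the second shControl SCM or the third shNdufa5_1 SCM library. With shNdufa5_2 it was more positive for 87 and more negative for 15 (median 0.29), where 43% of all genes were called, 18.9% and 24.1%. Without the GC and length trend the split was 22 and 9 for shNdufa5_1, where 24.8% of all genes were called, 8.44% and 16.3%. It was 34 and 8 for shNdufa5_2, where 26.7% were called, 8.33% and 18.4%. Divided by FPKM totals they were 143 and 0, and 177 and 0, with shifts of all genes of 0.46 and 0.52. Divided by fragment totals they were 77 and 1, and 117 and 4, with shifts of 0.16 and 0.13. Such shifts move all genes, and the share of all genes called under either total is not given here. The 2 interactions share the shControl libraries, so their values are given side by side only.

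Zfp719 and Zfp617 were the genes that fell most in shControl on the log2(FPKM + 1) scale. They led the positive interactions with shNdufa5_1, at 0.80 ± 0.15 (adjusted p = 0.000987) and 0.71 ± 0.12 (adjusted p = 0.000489). With shNdufa5_2 they stood at 0.68 and 0.75. An interaction subtracts the shControl difference by which these genes were picked, so that choice by itself pushes their interactions upward. In PCM Zfp719 stood at 2.88, 2.67 and 3.25 FPKM with shNdufa5_1 and at 2.98, 2.93 and 2.89 FPKM with shNdufa5_2, against 5.50, 4.96 and 5.64 FPKM in shControl. All 6 hairpin values were below all 3 of shControl, and the differences were -0.70 and -0.69 (adjusted p = 5.1e-05 and 0.000131). In SCM the differences of the hairpins from shControl were 0.11 and -0.02 and neither passed (adjusted p = 0.408 and 0.925). Zfp747 (0.64) and Zfp27 (0.63) came next with shNdufa5_1, and Zfp938 (1.08), Zfp62 (1.02), Zfp960 (0.97) and Zfp120 (0.95) led with shNdufa5_2. The Zfp120 interaction did not pass without the trend (0.51, adjusted p = 0.109). Zfp62 stood, with shNdufa5_2, at 5.11, 4.94 and 4.41 FPKM in SCM, against 4.82, 3.99 and 3.96 FPKM in PCM, and its fall in shControl is given above.

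The most negative interactions with shNdufa5_1 were those of Zfp53 (-0.54), Zfp52 (-0.42), Zfp984 (-0.42) and Zfp444 (-0.41). The Zfp984 call was lost in 7 of 12 fits that left out a library (adjusted p = 0.0621 to 0.109) and that of Zfp444 in 3 (0.0580 to 0.0658). With shNdufa5_2 they were those of Zfp1 (-0.69; -0.57 and adjusted p = 0.0517 without the trend), Zfp444 (-0.61), Zfp688 (-0.51) and Zfp64 (-0.49). Divided by FPKM totals, none of these negative interactions of either hairpin passed (-0.13 to 0.0882). Zfp53 had an interaction of -0.48 with shNdufa5_2. Its libraries of that label stood at 11.4, 10.2 and 10.8 FPKM in SCM, against 11.6, 10.5 and 10.6 FPKM in PCM. In the KRAB-like genes the shNdufa5_2 interaction was more positive for 48 and more negative for 3 (median 0.40), in those of chromosome 17 for 21 and 2 (median 0.46), and in the imprinting list for 4 of 5 (median 0.60). The rank correlation of this interaction with GC content was -0.701 over the Zfp genes and -0.552 over the others.

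Hairpins were also compared with shControl within a medium. In PCM 49 Zfp genes rose with shNdufa5_1 and 58 fell (median -0.02), where 52.7% of all genes were called, 25.6% higher and 27.1% lower. Zfp36 stood at 4.15, 3.44 and 4.46 FPKM with shNdufa5_1, against 10.4, 9.11 and 8.32 FPKM in shControl, with no overlap, as for 59.8% of all genes (-1.04 ± 0.13, adjusted p = 5.08e-06). Zfp954, a KRAB-like gene, stood at 3.23, 0.848 and 2.19 FPKM, against 5.53, 5.39 and 4.21 FPKM in shControl (-1.04 ± 0.21, adjusted p = 0.000545), with more spread. Zfp346 fell by 0.74 and Zfp622 by 0.70 (adjusted p = 2.31e-08), while Zfp397 (0.71), Zfp984 (0.67), Zfp830 (0.65) and Zfp24 (0.63) rose most. Zfp24, needed for myelination by oligodendrocytes in mice, stood at 9.86, 10.01 and 10.8 FPKM, against 6.51, 5.64 and 6.66 FPKM in shControl. Without the trend 34 rose and 62 fell, where 51.7% of all genes were called, 24.7% higher and 27% lower, and divided by FPKM totals 19 rose and 71 fell, with a shift of all genes of -0.12.

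In SCM 69 rose with shNdufa5_1 and 36 fell (median 0.11), where 59.8% of all genes were called, 28.7% higher and 31.1% lower. Zfp36 stood at 4.04, 4.92 and 3.79 FPKM with shNdufa5_1, against 7.93, 8.90 and 11.1 FPKM in shControl (-0.97 ± 0.13, adjusted p = 6.96e-06), so that it was below all shControl libraries in both media. In SCM 65.1% of all genes had hairpin and shControl groups that did not overlap. Zfp24 stood at 8.46, 8.16 and 7.58 FPKM, against 4.2, 3.79 and 4.03 FPKM in shControl (0.86 ± 0.06, adjusted p = 1.17e-08). Zfp24 and Zfp397, which rose by 0.81, lie close together on chromosome 18, and Zfp943 (0.83) and Zfp512b (0.70) also rose. Zfp428 (-0.74), Zfp444 (-0.72) and Zfp954 (-0.62) fell, and the last lost its call without the second shControl SCM library (adjusted p = 0.0759) and without the trend (-0.49, adjusted p = 0.0532). Without the trend 40 rose and 45 fell, where 55.5% of all genes were called, 23.8% higher and 31.7% lower. Divided by FPKM totals 141 rose and 4 fell, with a shift of 0.34, and divided by fragment totals 108 and 17, with a shift of 0.15. Both scalings shift all genes upward, so the larger number of risen Zfp genes under them cannot be read as particular to the family. With the trend removed risen genes did not outnumber fallen ones.

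Of the RNA and ribosome list, 4 rose and 6 fell with shNdufa5_1 in PCM, and 4 rose and 5 fell in SCM. Zfp36, Zfp346, Zfp622, Zfp706 and Zfp385a fell in both media, and Zfp207, Zfp106, Zfp326 and Zfp830 rose in both. Zfp207 stood at 18, 18.1 and 18.4 FPKM with shNdufa5_1, against 12.8, 12.3 and 12.4 FPKM in shControl in PCM, a difference of 0.50, and the difference in SCM was 0.53. Zfp57 fell by 0.54 in PCM (adjusted p = 2.02e-07) and by 0.24 in SCM. In PCM it stood at 11.4, 11.2 and 11 FPKM with shNdufa5_1, against 16.8, 16.2 and 17 FPKM in shControl. Of the Trim28 machinery 10 of 18 rose and 1 fell in PCM, and 11 rose and 3 fell in SCM, or 5 and 3 in PCM and 17 and 0 in SCM when divided by FPKM totals. The media were compared with shControl libraries of their own, so PCM and SCM results share none.

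In the libraries labelled shNdufa5_2 the Zfp genes were lower than in shControl in PCM and higher in SCM. In PCM 74 fell and 11 rose (median -0.16), where 35.6% of all genes were called, 16.3% lower and 19.3% higher, although Ndufa5 itself did not pass there. The 11 became 5 without the third shControl PCM library and 7 without the third shNdufa5_2 PCM library. Zfp719 (-0.69), Zfp938 (-0.64), Zfp959 (-0.64) and Zfp955b (-0.60) fell most, and Zfp637 (0.47), Zfp53 (0.45), Zfp688 (0.41) and Zfp526 (0.35) rose most. Zfp526 lost its call without 3 of the libraries (adjusted p = 0.0575 to 0.122) and without the trend (0.24, adjusted p = 0.135), as did Zfp938 without the trend (-0.42, adjusted p = 0.0847). None of the 4 risen genes passed when divided by FPKM totals (0.0286 to 0.165). Zfp53 stood at 11.6, 10.5 and 10.6 FPKM, against 7.32, 8.08 and 7.72 FPKM in shControl, without overlap, as for 49.8% of all genes. All 4 called genes of the imprinting list fell, and Zfp445 stood at 6.21, 6.65 and 6.11 FPKM, against 9.72, 8.80 and 9.71 FPKM in shControl (-0.51, adjusted p = 0.000401). Of the KRAB-like genes 45 fell and 2 rose (median -0.28). Without the trend 33 fell and 7 rose, where 25.8% of all genes were called, 10.3% lower and 15.5% higher, and divided by FPKM totals 166 fell and none rose, with a shift of -0.30.

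In SCM 50 rose with shNdufa5_2 and 10 fell (median 0.09), where 33.9% of all genes were called, 13.9% higher and 20% lower. The 10 became 6 without the second shControl SCM library. Zfp469 (0.69, adjusted p = 7.74e-05), Zfp62 (0.59), Zfp507 (0.53) and Zfp120 (0.53) rose most, and Zfp1 (-0.48), Zfp428 (-0.46), Zfp771 (-0.43) and Zfp444 (-0.37) fell most. Zfp469 stood at 4.27, 3.54 and 4.09 FPKM, against 2.29, 1.89 and 2.03 FPKM in shControl, with no overlap, as for 43.2% of all genes. The calls of Zfp120 and Zfp1 were lost without 3 and 4 of the libraries (adjusted p = 0.0662 to 0.126 and 0.0574 to 0.0716), and those of Zfp120 (0.34) and Zfp428 (-0.25) without the trend (adjusted p = 0.134 and 0.0693). None of the 4 fallen genes passed when divided by FPKM totals (-0.23 to -0.11). Zfp36 stood at 10.3, 9.13 and 7.91 FPKM in SCM and 9.82, 8.98 and 10.9 FPKM in PCM, overlapping the shControl ranges, and did not pass (-0.03 and 0.09, adjusted p = 0.899 and 0.626). Of the KRAB-like genes 26 rose and 2 fell (median 0.17). Without the trend 18 rose and 7 fell, where 24.3% of all genes were called, 8.07% higher and 16.2% lower. Divided by FPKM totals 112 rose and none fell, with a shift of 0.23, and divided by fragment totals 73 and 4, with a shift of 0.07.

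Other zinc finger families are set beside these for SCM against PCM in shControl. Of 32 Zbtb genes 15 fell and 2 rose (median -0.19), of 15 Zscan and Zkscan genes 6 fell and 2 rose (median -0.11), and of 11 Klf genes 6 fell and 1 rose (median -0.20). The 3 medians lay between those of the Zfp genes and of all genes, but without the trend those of the Zbtb (-0.17) and Klf genes (-0.29) lay below that of the Zfp genes (-0.11), and that of the Zscan and Zkscan genes was -0.08. Divided by FPKM totals, 29 of the 32, 11 of the 15 and all 11 fell and none rose. Whether the Zfp genes differ from these families was not tested.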

How the data were processed

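Polyadenylated RNA was sequenced from NEBNext Ultra II libraries, per the labels' protocols. The authors deposited 1 table of FPKM values for 54532 genes. The submitters' processing notes name STAR 2.6.1 and the builds mm10 and GRCm38. How fragments were counted, with which strand setting and over which FPKM denominator, is not given in the sources used here. All 18 columns were matched to libraries by name. Median-ratio factors were 1.008 in every library, so the deposited FPKM were already on a common scale. Recovered denominators differed from depth, as in the second shControl SCM library (33.7 M against 38.9 M fragments). Fragments were recovered from the steps of low values (99.5 to 99.8% whole within 0.1 fragments, at 20 fragments or fewer, for genes with 1 transcript, and 97.1 to 98.2% for others). Annotation was GENCODE of GRCm38, which held 99.9% of the gene identifiers.

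Genes with a mean of at least 1 FPKM were tested as log2(FPKM + 1) with limma 3.58.1 in R 4.3.3, in 1 model of 6 groups with variances trended on the mean and no replicate block. Each contrast was two-sided, with Benjamini-Hochberg adjustment over 11084 genes. The fit was tested on simulated data in which 200 of 11084 genes were changed in the shControl SCM libraries. It recovered 35.5% of changes of 0.3, 72.5% of changes of 0.5 and 95.5% of changes of 1 (log2 scale). False calls numbered 4 to 10. Far more genes were called in the data, so these shares need not hold there. A second fit removed from each library the trend with exon GC content and length (splines with 5 degrees of freedom each, 11074 genes). Proteins were translated from GENCODE coding sequences, since no protein table was used here. Other settings tried were a pseudocount of 0.1, no filter, a mean of at least 2 FPKM, FPKM totals, quantile normalization, a replicate block, array weights and each library left out; fragment totals were added after seeing the data.

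Named genes are the 6 with the highest mean, the 8 that rose and the 8 that fell most in SCM against PCM in shControl, the 4 and 4 of each other comparison (called, with groups not overlapping), the 4 and 4 of each interaction, and every tested gene of the 3 role lists. The genes and lists were chosen with earlier results of these data known, so nothing here is independent evidence of the whole-table pattern. Plots were drawn with matplotlib 3.10.9.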

Additional observations from a re-analysis of the deposited data

Results flagged for a closer look

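The SCM response differed between each hairpin and shControl by a test of the difference itself, limma's interaction term at an adjusted p under 0.05. With shNdufa5_1 minus shControl it was more positive for 28 Zfp genes and more negative for 7. Of all genes tested 10.7% were called more positive and 15.5% more negative. The named genes were Zfp719 (0.80), Zfp617 (0.71), Zfp747 (0.64) and Zfp27 (0.63) on the positive side, and Zfp53 (-0.54), Zfp52 (-0.42), Zfp984 (-0.42) and Zfp444 (-0.41) on the negative side. With shNdufa5_2 minus shControl it was more positive for 87 and more negative for 15, where 18.9% and 24.1% of all genes tested were so called. The named genes were Zfp938 (1.08), Zfp62 (1.02), Zfp960 (0.97) and Zfp120 (0.95) on the positive side, and Zfp1 (-0.69), Zfp444 (-0.61), Zfp688 (-0.51) and Zfp64 (-0.49) on the negative side. With the GC and length trend removed, Zfp120 (0.51) and Zfp1 (-0.57) did not pass (adjusted p = 0.109 and 0.0517). Divided by FPKM totals, none of the genes named on the negative side of either hairpin passed (-0.13 to 0.0882). Divided by fragment totals, Zfp52, Zfp984 and Zfp444 with shNdufa5_1 and Zfp1 with shNdufa5_2 did not pass. Both sets rest on the same shControl libraries.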

How the results depend on the processing

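Counts of called Zfp genes are given in the order SCM against PCM in shControl, with shNdufa5_1 and with shNdufa5_2, shNdufa5_1 and shNdufa5_2 against shControl in PCM and then in SCM, and the interactions of shNdufa5_1 and shNdufa5_2; they were 153, 84, 35, 107, 85, 105, 60, 35 and 102. Leaving out each library in turn gave 128 to 142, 62 to 77, 21 to 27, 85 to 92, 58 to 82, 87 to 102, 46 to 59, 24 to 34 and 90 to 99. A replicate block gave 155, 81, 33, 104, 86, 103, 61, 32 and 101. Deviations of libraries with the same replicate number correlated at -0.0925 to 0.0646 (45 pairs), against -0.0973 to 0.0958 for other numbers (90 pairs). Of 18 libraries, 8 correlated best with their own number. Such values cannot exclude cultures shared between groups. With the GC and length trend removed the counts that moved by over 1.5 times were 94, 38, 40 (shNdufa5_2 in PCM), 25 (shNdufa5_2 in SCM) and 42 (shNdufa5_2 interaction), and with the replicate block on top 93, 36, 39, 27 and 40, where the shNdufa5_2 interaction of Zfp938 also lost its call (adjusted p = 0.0584). With no filter on low values, shNdufa5_2 gave 19 for the medium and the shNdufa5_1 interaction 20, where more genes were tested. Divided by FPKM totals the counts were 12 for the medium with shNdufa5_2, 166 and 112 for shNdufa5_2 in PCM and in SCM, and 143 and 177 for the interactions, and divided by fragment totals 78 for the shNdufa5_1 interaction. The cause was not tested beyond these constructions.

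For SCM against PCM in shControl, FPKM totals turned Zfp335 (-0.0283), Zfp414 (-0.0369), Zfp692 (-0.0354), Zfp444 (-0.0158), Zfp574 (-0.0327), Zfp53 (-0.0809), Zfp385a (-0.15), Zfp263 (-0.44), Zfp143 (-0.38), Zfp740 (-0.45) and Zfp609 (-0.48), and fragment totals turned Zfp263 (-0.12), Zfp143 (-0.0531), Zfp740 (-0.10) and Zfp609 (-0.14). Quantile normalization turned Zfp740 (-0.00314) and Zfp36 (0.0223). Removing the trend, with or without the replicate block, turned Zfp207 (0.18), Zfp622 (0.14), Zfp706 (0.11), Zfp932 (0.0888), Zfp410 (0.0181), Zfp322a (0.25) and Zfp292 (0.29). In the interactions FPKM totals turned Zfp52 (0.0882) and Zfp444 (0.0765) with shNdufa5_1, and Zfp688 (0.0587) and Zfp64 (0.0844) with shNdufa5_2. Of 112 results for named genes, 110 kept direction and side of the threshold with a pseudocount of 0.1, 101 with no filter, 107 with quantile normalization, 108 with the block, 108 with array weights, 80 with the trend removed, 75 with FPKM totals and 95 with fragment totals. Of 768 fits without 1 library, 44 lost a call, 2 gained one and 4 changed the sign of a value that did not pass, 3 for Zfp36 (-0.12 to 0.0983) and 1 for Zfp292 (-0.18 to 0.0188). With a mean of at least 2 FPKM, 156 of the Zfp genes were tested and all 95 named results held. No Zfp gene had under 10 fragments in any library, but with 3 libraries a group, genes that did not pass cannot be read as unchanged.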
